A study of Mus musculus with 10 samples.

Results

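The genes described here encode the proteasome: its subunits, activators, inhibitor and assembly chaperones. They were taken by symbol, as every row of the gene table that starts with Psma, Psmb, Psmc, Psmd, Psme, Psmf or Psmg followed by a digit. Psmc3ip, whose symbol begins alike, was left out. This gave 47 genes of 15507 in the table, and all 47 were among the 15389 genes that passed the filter on low reads. The other 45 were set against Psma8, the testis alpha subunit, and Psme4, the gene of the activator PA200. Germ cells were dispersed from the testes of 5 wild type (WT) mice and 5 homozygous GRTH knock-in (KI) mice, all aged 45 days, and each mouse gave 1 RNA-seq library. In KI mice both alleles are the human gene with an R242H change, while WT mice keep the mouse gene, so the mutation and the exchange of the gene cannot be told apart. GRTH (DDX25) is an RNA helicase of male germ cells, and the comparison asks how transcript levels differ where the knock-in allele replaces it.

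The 26S proteasome degrades proteins that carry ubiquitin chains. Its 20S core is a barrel of stacked rings, with alpha subunits at both ends that gate the entry and beta subunits in the middle, some of which cut peptides. The 19S particle binds ubiquitin, unfolds the substrate with a ring of ATPases and removes the ubiquitin in its lid. Immune cells and cells exposed to interferon exchange the cutting subunits for inducible ones, and male germ cells use their own alpha subunit, PSMA8. Other caps, PA28 and PA200, replace the 19S particle, and PA200 is known in spermatids for the degradation of acetylated histones when protamines replace them.

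The deposited unit is a normalized count, which is the count of reads on a gene divided by a size factor of the library. Depth was 13323024 to 16422347 reads on genes in the WT libraries and 12722086 to 15500582 in the KI libraries, so that 3 reads correspond to 2.61 to 3.62 normalized counts. Libraries 1 to 3 of both genotypes differ from libraries 4 and 5 in mean read quality in the alignment summary of the study, and the values within each of these groups are given beside the pooled ones. Reads aligned to Ddx25, the mouse gene of GRTH, gave 5198 to 11101 normalized counts in WT. In KI they gave 146.0, 193.8 and 160.6 in libraries 1 to 3, and 2.88 and 1.84 in libraries 4 and 5. KI libraries 4 and 5 therefore held 3 reads or fewer. Ddx25 was lower in KI by limma, a linear model with shared variance across all genes (log2 fold change −7.84, SE 1.03, adjusted p = 5.63e-05), a size that depends on the pseudocount. The fixed markers of spermatogonia, spermatocytes and spermatids were above 0 in every library, and so were those of Sertoli cells, Leydig cells and macrophages. The summed level of 8 markers of elongating spermatids lay between 240478 and 430703 normalized counts in WT and between 34713 and 69610 in KI, and all 8 were called lower.

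Most proteasome genes did not pass the test between KI and WT. At an adjusted p under 0.05, 5 of the 47 were lower in KI and 3 were higher, which is 17.0% of them. Of all genes tested, 22.9% were called, with 13.3% lower and 9.65% higher, so the share among proteasome genes was not above the background. With a fold change of at least 1.5 in addition, the lower ones were Psmd10, Psmf1 and Psma6, and the higher one was Psmb8, against a background of 14.4% (8.22% lower and 6.13% higher). The median log2 fold change was 0.02 over the 47 genes and 0.03 over all genes tested. The log2 fold change lay within 0.2 of 0 in 31 genes, and in 37 the 95% interval excluded a change of 1.5-fold in either direction. Every KI library lay below every WT library for 5 genes and above for 3, against 10.9% and 6.8% of all genes. Scaling to library totals moved the median of all genes by more than 0.1 on the log2 scale, to 0.25. Under it 3 proteasome genes were lower and 18 higher (all genes, 7.92% lower and 32.6% higher), and their median was also 0.25.

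**Figure D1:**
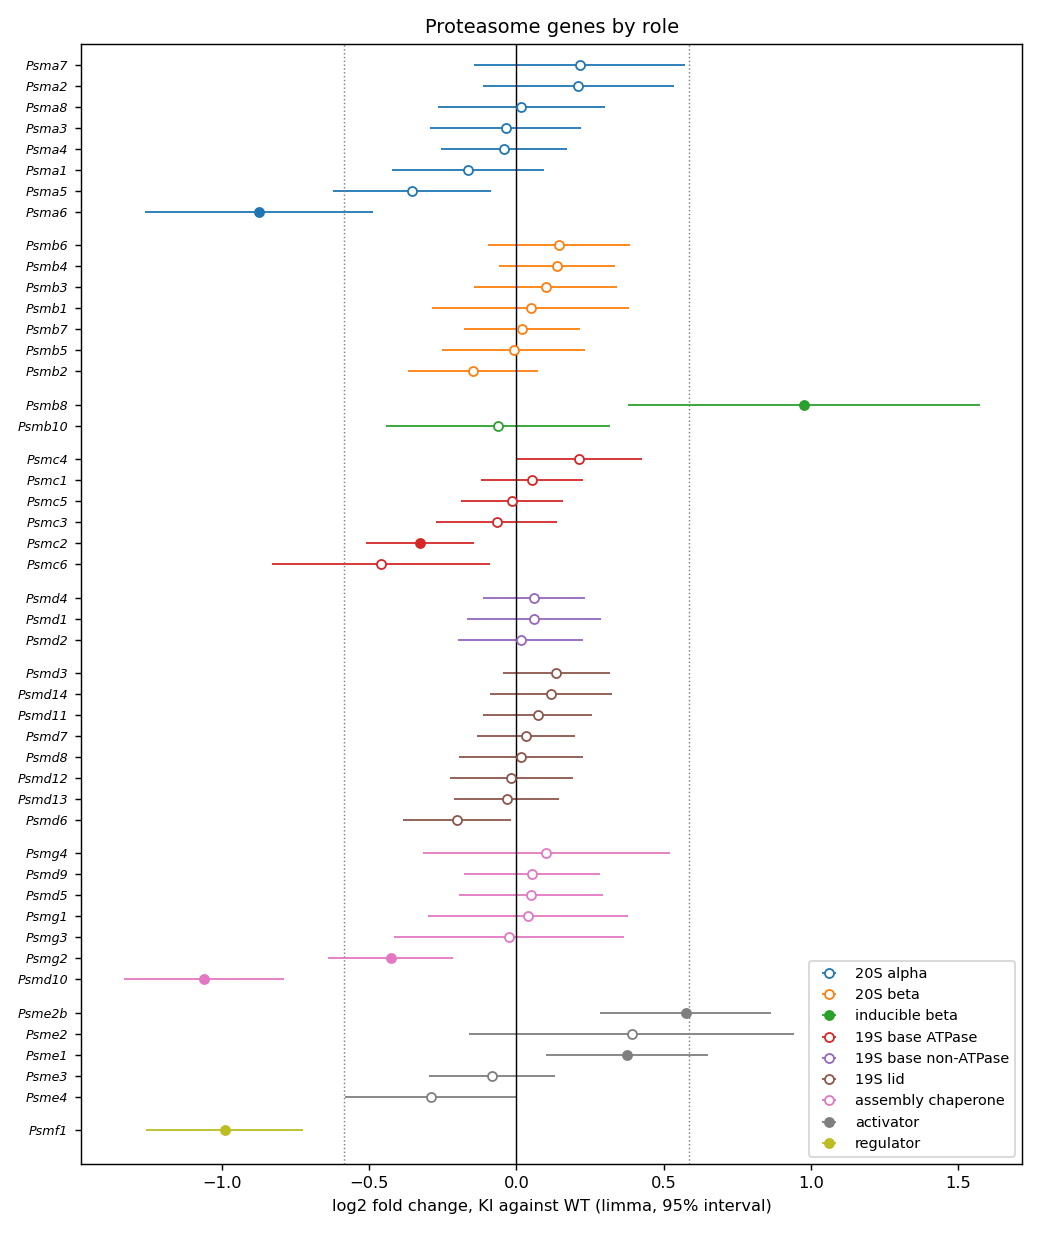
Log2 fold change of each of the 47 proteasome genes, KI against WT (x axis, limma, 5 libraries per genotype), grouped by role. Bars are 95% intervals, filled points have an adjusted p under 0.05, and dotted lines mark a fold change of 1.5 either way. Most points lie close to 0, with Psmd10, Psmf1 and Psma6 far to the left and Psmb8 far to the right.

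Transcript levels differed widely among subunits that enter the particle in equal numbers. Levels are compared here as normalized counts per kb of exon in WT. The length is that of all exons of a gene joined (GENCODE M21), while the authors counted reads on RefSeq_v91, so the order within a role depends on the length used. Among the alpha subunits they ranged from 77.7 for Psma3 to 7404 for Psma6, and Psma6 was 54.2-fold above the median of the other 6 constitutive alpha genes (43.4-fold with the length of the longest transcript in place of all exons). Among the beta subunits they ranged from 186.0 for Psmb1 to 1382 for Psmb5. With the longest transcript, the beta range ran from 326 for Psmb3 to 2405 for Psmb6. The ATPases ranged from 142 for Psmc6 to 4620 for Psmc3, which was 7.65-fold above the median of the other 5. The lid ranged from 111 for Psmd11 to 1818 for Psmd8, the other base subunits from 219 for Psmd1 to 2004 for Psmd2, and the chaperones from 19.6 for Psmg3 to 325 for Psmg2. Psmb8 was the lowest of all, at 2.59. Reads on Psma3, Psmb7 and Psme1 may include reads of an overlapping listed gene, since the strand setting of the counting is not given in the sources used here.

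**Figure D2:**
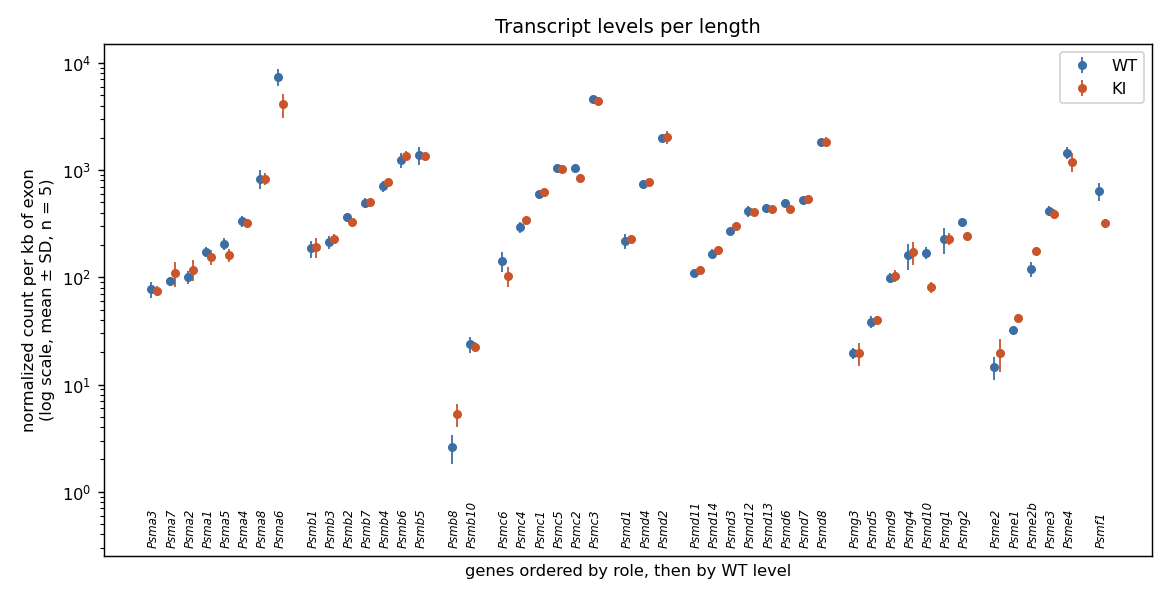
Normalized count per kb of exon (log axis) for the 47 genes in WT and KI, ordered by role and then by WT level; points are means and bars SDs of 5 libraries. Psma6 stands above the other alpha subunits in both genotypes and Psmb8 is the lowest gene.

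Of the 15 constitutive and testis genes of the 20S core, Psma6 was the 1 that was called, while 22.9% of all genes tested were called. Of 8 alpha genes, Psma6 was called lower and 0 were called higher, with a median log2 fold change of −0.04. PSMA6 is a constitutive subunit of the outer ring. Psma6 gave 9904, 9285, 9751, 10336 and 6409 normalized counts in WT libraries 1 to 5, and 6031, 5950, 5995, 4199 and 3169 in KI libraries 1 to 5. Every KI library lay below every WT library, and WT library 5 was far below the other WT libraries. The log2 fold change was −0.87 (SE 0.18, adjusted p = 0.00254), with −0.69 in libraries 1 to 3 and −1.16 in libraries 4 and 5. The level per kb fell from 7404 ± 1273 to 4108 ± 1067 (SD, n = 5), which was still 30.1-fold above the median of the other constitutive alpha genes in KI. In these bulk libraries, fewer cells of a type and less RNA per cell cannot be told apart. The levels of the spermatid markers given above fell between the same groups, and their part in this and the other falls was not tested.

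The gene of Psma6 (mm10, chr12:55384222-55418459, plus strand) has 2 annotated start sites in RefSeq, 14603 bases apart, and the gene table gives 1 value over both. Their promoters are shown because the gene stands so far above its neighbours in the ring. Each stretch runs from 250 bases before to 50 bases after the start (RefSeq, GRCm38.p6, chr12:55383972-55384271 and chr12:55398575-55398874), and capitals mark CCAAT or its reverse complement, the letters bound by NF-Y.

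Psma6 upstream start: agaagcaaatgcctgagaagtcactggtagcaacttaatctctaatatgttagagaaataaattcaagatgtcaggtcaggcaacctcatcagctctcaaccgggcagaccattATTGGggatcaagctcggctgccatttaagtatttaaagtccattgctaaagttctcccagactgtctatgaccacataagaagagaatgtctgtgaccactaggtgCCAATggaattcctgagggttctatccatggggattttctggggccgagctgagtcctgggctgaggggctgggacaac
Psma6 downstream start: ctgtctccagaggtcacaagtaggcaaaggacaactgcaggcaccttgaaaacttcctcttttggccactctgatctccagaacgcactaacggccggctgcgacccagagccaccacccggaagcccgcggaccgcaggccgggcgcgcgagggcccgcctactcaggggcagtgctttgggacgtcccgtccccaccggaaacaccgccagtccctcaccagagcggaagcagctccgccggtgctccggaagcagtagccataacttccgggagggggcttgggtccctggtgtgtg

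The upstream promoter had 46.7% G and C and 3 CpG, and the downstream one had 65.0% and 22. The median was 57.0% over the 42 promoters matched to 39 of the 47 genes, and 52.7% over all 32851 promoters. The upstream stretch held CCAAT 2 times, and the downstream stretch did not hold it.

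The other alpha genes had log2 fold changes between −0.35 and 0.22. Psma5 gave 321, 234, 244.0, 292 and 266 normalized counts in WT and 235, 193, 187, 253 and 193 in KI, and its genotypes overlapped. Its log2 fold change of −0.35 (SE 0.13) missed the threshold (adjusted p = 0.0553), and passed it with the replicate number as a block (adjusted p = 0.0100) and by DESeq2 (adjusted p = 0.0397). In limma it also passed without KI library 4 (adjusted p = 0.0282) and without WT library 2 (adjusted p = 0.0452). The 7 constitutive beta genes ranged from −0.15 for Psmb2 to 0.14 for Psmb6. By limma 0 of them were called, 0 had an unadjusted p under 0.05, and edgeR and DESeq2 also called 0. The cutting subunits lay near 0: the log2 fold change was −0.01 for Psmb5 (95% interval −0.25 to 0.23), 0.14 for Psmb6 (−0.10 to 0.39) and 0.02 for Psmb7 (−0.18 to 0.21).

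Psma8 did not differ detectably between the genotypes. PSMA8 takes the place of PSMA7 in the alpha ring of germ cells from the spermatocyte stage on. Psma8 gave 2556, 2356, 2076, 1872 and 1521 normalized counts in WT libraries 1 to 5, and 2310, 2212, 2264, 1821 and 1790.4 in KI libraries 1 to 5. The genotypes overlapped fully, and libraries 4 and 5 were the lowest in both. The log2 fold change was 0.02 (SE 0.13, 95% interval −0.27 to 0.30, adjusted p = 0.949), with −0.04 in libraries 1 to 3 and 0.10 in libraries 4 and 5. Its log2 level, not divided by length, stood 1.37 ± 0.25 above the mean of the 14 other constitutive 20S genes in WT and 1.44 ± 0.07 in KI (SD, n = 5).

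Psma7, the somatic counterpart, was far lower in both genotypes. It gave 268, 254, 281, 326 and 276 normalized counts in WT and 365, 428, 388, 205 and 294 in KI. KI libraries 1 to 3 were above every WT library, and KI libraries 4 and 5 were not. The pooled log2 fold change was 0.22 (SE 0.17, adjusted p = 0.401), and it was 0.38 (adjusted p = 0.0421) without KI library 4. Within libraries 1 to 3 it was 0.55 (adjusted p = 0.000777) and within libraries 4 and 5 it was −0.29, and the adjusted p of that difference was 0.0948 in limma, the smallest of the 47 genes. Per kb, Psma8 was 9.10-fold above Psma7 in WT and 7.63-fold in KI, and 5.84-fold in WT with the length of the longest transcript. The 2 coding sequences are 74.9% identical, with a longest identical run of 17 bases. The share of Psma8 in the sum of both, per kb, was 89.8% ± 2.34 in WT and 88.5% ± 1.92 in KI (SD, n = 5; exact two-sided permutation test, p = 0.381, adjusted over 3 pairs p = 0.524). With the longest transcript it was 85.0% in WT and 83.2% in KI. In libraries 1 to 3 the share was 91.4% in WT and 87.6% in KI, and in libraries 4 and 5 it was 87.4% and 89.9%, the opposite direction.

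Of the other 46 genes, those whose log2 levels were most like Psma8 over the 10 libraries, after the genotype means were removed, were Psmg2 (Pearson r 0.894, Spearman rho 0.830), Psma4 (0.893 and 0.903) and Psmd1 (0.869 and 0.842). The libraries share the split by read quality, and r was 0.917, 0.823 and 0.797 after the means of both library groups were removed too.

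Psme4 had the highest mean of all 47 genes in WT without division by length, and its fold change did not pass the test. Its exons are long, and per kb its WT level of 1458 was below those of Psma6 (7404), Psmc3 (4620), Psmd2 (2004) and Psmd8 (1818). PA200, its product, is a single large chain that caps the 20S core. Psme4 (mm10, chr11:30771775-30880361, plus strand) gave 13400, 13964, 10594, 10537 and 12619 normalized counts in WT libraries 1 to 5, and 9620, 8383, 8162, 11547 and 12633 in KI libraries 1 to 5. KI libraries 1 to 3 lay below every WT library, while KI libraries 4 and 5 lay within the WT range. The pooled log2 fold change was −0.29 (SE 0.14, 95% interval −0.58 to −0.00, adjusted p = 0.143). Within libraries 1 to 3 it was −0.53 (adjusted p = 0.000706) and within libraries 4 and 5 it was 0.07, and the difference had an adjusted p of 0.127. Without KI library 5 the adjusted p was 0.0433. Its log2 level stood 4.23 ± 0.23 above the mean of the 45 genes other than Psma8 in WT and 3.96 ± 0.35 in KI (SD, n = 5), with a difference of −0.54 in libraries 1 to 3 and 0.15 in libraries 4 and 5. The genes most like it over the libraries were Psmd2 (r 0.779, rho 0.794), Psmc1 (0.735 and 0.709) and Psme1 (0.403 and 0.382). With the means of both library groups removed too, r was 0.511, 0.356 and 0.468.

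**Figure D3:**
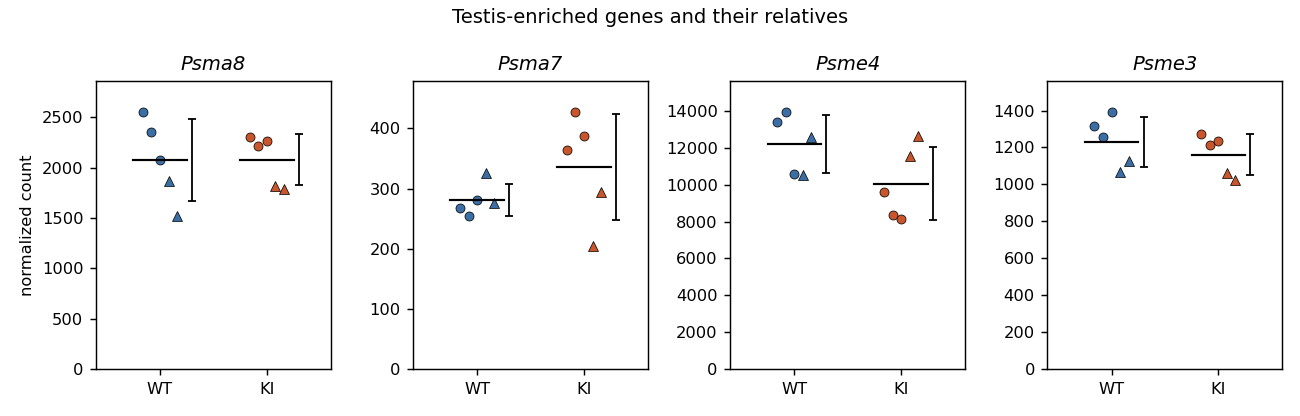
Normalized counts of Psma8, Psma7, Psme4 and Psme3 in each library. Circles are libraries 1 to 3, triangles libraries 4 and 5, lines means and bars SDs of 5 libraries. Psma8 and Psme3 overlap between the genotypes, and KI libraries 1 to 3 stand apart from WT in Psma7 and Psme4 while KI libraries 4 and 5 do not.

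Of the PA28 activator genes, Psme1 and Psme2b were higher in KI. PSME1 and PSME2 form the PA28 cap induced by interferon, and PSME3 forms a nuclear cap of its own. Psme1 (mm10, chr14:55578494-55581527, plus strand) gave 73.2, 65.9, 71.3, 67.2 and 79.1 normalized counts in WT and 102, 82.6, 89.6, 90.4 and 100.3 in KI. Every KI library was above every WT library. The log2 fold change was 0.38 (SE 0.13, adjusted p = 0.0484), and it missed the threshold by edgeR (adjusted p = 0.0509) and DESeq2 (adjusted p = 0.0537) and when any 1 library other than WT library 5 was left out. Psme3 gave 1317, 1259, 1393, 1064 and 1125 normalized counts in WT and 1271, 1212, 1233, 1064 and 1023 in KI, with overlap throughout. Its log2 fold change was −0.08 (SE 0.10, adjusted p = 0.607), and per kb it was 12.9-fold above Psme1 in WT.

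Psme2 and Psme2b cannot be separated with confidence, since their coding sequences of 717 bases are 99.3% identical and share a run of 311 bases. The 90 bases of each from coding base 454 on, which hold 3 of the bases that differ, show how alike they are (GENCODE M21, capitals mark differing bases).

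Psme2: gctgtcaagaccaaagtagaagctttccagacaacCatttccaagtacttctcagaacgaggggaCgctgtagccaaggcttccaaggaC
Psme2b: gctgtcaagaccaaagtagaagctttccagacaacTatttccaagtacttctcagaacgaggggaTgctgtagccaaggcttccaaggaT

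Psme2 gave 29.3, 22.0, 35.0, 19.1 and 23.5 normalized counts in WT and 49.6, 41.7, 26.8, 36.5 and 20.2 in KI, and its log2 fold change of 0.39 (SE 0.26) did not pass the test (adjusted p = 0.312). Psme2b (mm10, chr11:48945352-48946410, minus strand) gave 86.8, 78.6, 106, 114 and 112 in WT and 149, 144, 167, 136 and 143 in KI. It was higher in every KI library, with a log2 fold change of 0.57 (SE 0.14, adjusted p = 0.00628), 0.76 in libraries 1 to 3 and 0.29 in libraries 4 and 5. The sum of both genes gave 116, 101, 141, 133 and 136 in WT and 198, 186, 194, 172 and 163 in KI. Its mean was 125 ± 16.8 in WT and 183 ± 14.8 in KI (SD, n = 5; exact two-sided permutation test, p = 0.00794, the smallest that 5 against 5 libraries can give), with no overlap. Within the 5 pairs of same-numbered libraries the exact permutation p was 0.0625, the smallest possible. The sum was formed after the values were seen.

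**Figure D4:**
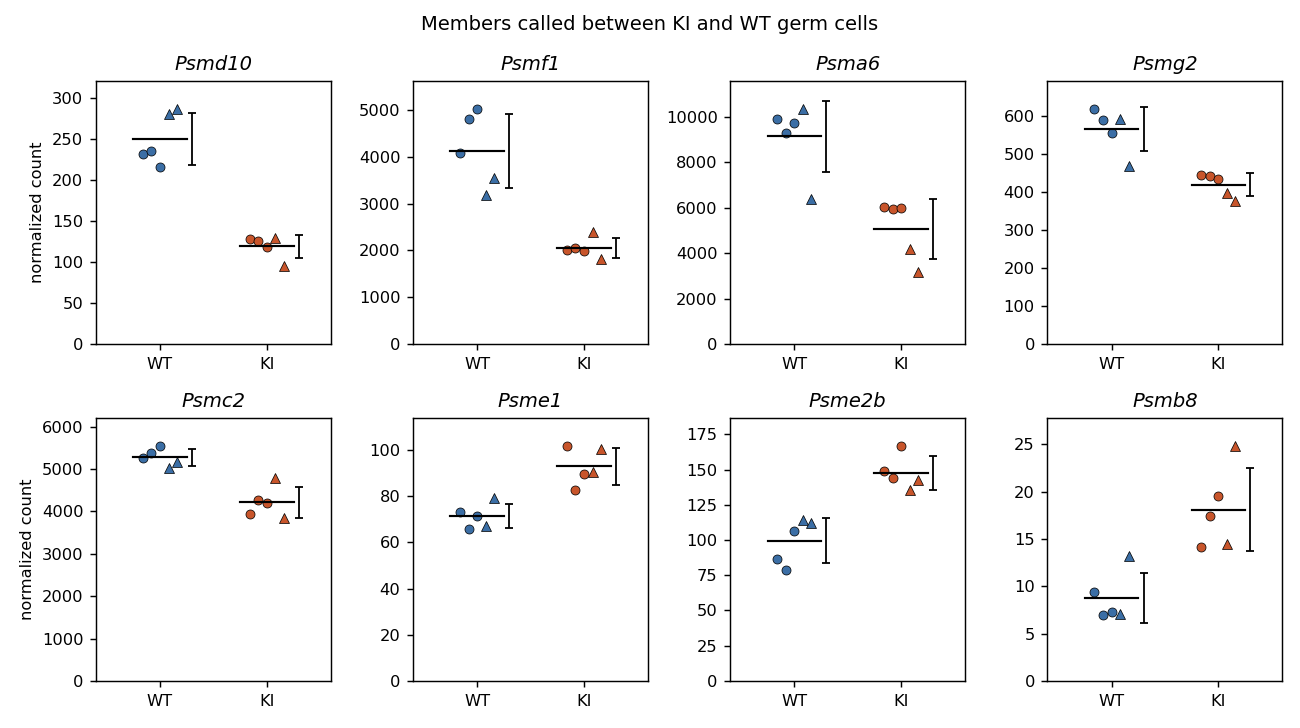
Normalized counts of the 8 proteasome genes with an adjusted p under 0.05, each axis starting at 0. Circles are libraries 1 to 3, triangles libraries 4 and 5, lines means and bars SDs of 5 libraries per genotype. In all 8 panels the KI libraries lie entirely below or entirely above the WT libraries.

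Of the inducible beta genes, Psmb8 was higher in KI and Psmb10 was not called. PSMB8 (LMP7) takes the place of PSMB5 in the immunoproteasome, PSMB10 (MECL-1) that of PSMB7, and Psmb9, the partner of PSMB6, was not analysed here. Psmb8 (mm10, chr17:34198195-34201454, plus strand) gave 9.41, 6.94, 7.25, 7.02 and 13.2 normalized counts in WT libraries 1 to 5, and 14.2, 17.4, 19.6, 14.4 and 24.8 in KI libraries 1 to 5. All KI libraries were above all WT libraries, and library 5 was the highest of each genotype. The log2 fold change was 0.98 (SE 0.28, adjusted p = 0.0196), with 1.02 in libraries 1 to 3 and 0.90 in libraries 4 and 5, and without KI library 5 the adjusted p was 0.0552. With 3 reads worth about 3 normalized counts, these are values of few reads. Psmb10 gave 31.4, 34.7, 48.3, 44.1 and 44.2 normalized counts in WT and 40.7, 41.7, 39.1, 38.5 and 32.2 in KI (log2 fold change −0.06, SE 0.18, adjusted p = 0.846).

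The constitutive partners of the inducible subunits were not called. Psmb5 gave 1112, 1113, 1184, 1666 and 1136 normalized counts in WT and 1101, 1296, 1316, 1219 and 1174 in KI, with WT library 4 apart from the others. Psmb7 gave 1904, 1789.8, 1753, 1559.7 and 1481 in WT and 1663, 1891, 1769.8, 1666 and 1584 in KI. The share of Psmb8 in Psmb5 and Psmb8, per kb, was 0.194% ± 0.0748 in WT and 0.393% ± 0.0977 in KI (SD, n = 5; exact two-sided permutation test, p = 0.00794, adjusted over 3 pairs p = 0.0238). That share was higher in 5 of 5 KI libraries than in any WT library. Permuting within the 5 pairs of same-numbered libraries gave p = 0.0625 (exact), the smallest that 5 pairs allow. This test could not pass a threshold of 0.05 whatever the values, so it decides nothing about the call. In limma with the replicate number as a block, Psmb8 itself had an adjusted p of 0.0170. The level of the share depends on the length used: it was 0.344% in WT and 0.694% in KI with the longest transcript, and 0.727% and 1.46% without division by length. The share of Psmb10 in Psmb7 and Psmb10 was 4.64% ± 1.10 in WT and 4.30% ± 0.28 in KI (SD, n = 5; exact permutation test, p = 0.524). In libraries 1 to 3 that share was 4.06% in WT and 4.39% in KI, the opposite direction.

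Genes of antigen processing that interferon induces were set beside them. Of 11 tested, 7 were higher in KI and 1 was lower at an adjusted p under 0.05 in limma (all genes tested, 9.65% and 13.3%), with a median log2 fold change of 0.47. The largest rises were those of Gbp2, an interferon-induced GTPase (log2 fold change 1.18, adjusted p = 0.00637), Tap1, a subunit of the peptide transporter (0.90, adjusted p = 0.0372), and Irf8, a transcription factor of myeloid cells (0.79, adjusted p = 0.00591). Nlrc5, an activator of class I genes, was lower (−0.80, adjusted p = 0.0102). All macrophage and Leydig cell markers had log2 fold changes above 0, and none of the somatic markers was at 0 in any library. Of the macrophage markers 6 of 9 were called higher, and their summed level was 788 to 1032 normalized counts in WT and 1190 to 1559 in KI. Of the Leydig cell markers 4 of 7 were called higher, with a sum of 10875 to 19504 in WT and 15729 to 27046 in KI. Of the peritubular myoid markers 2 of 4 were higher (sum 117 to 201.4 in WT and 169 to 231 in KI), of the endothelial ones 1 of 3 (77.4 to 134 and 123 to 171) and of the Sertoli cell ones 1 of 8 (6953 to 11559.9 and 7409 to 12269). The macrophage sums did not overlap between the genotypes, while the Leydig, myoid, endothelial and Sertoli cell sums did. The myoid markers Myh11 (log2 fold change −0.30) and Tagln (−0.23) went the other way and were not called. Of 5 lymphocyte markers only Ptprc is listed, and it was not called. With the replicate number as a block in limma, Ptprc also passed (adjusted p = 0.0346), as did Adgre1 of the macrophage markers (adjusted p = 0.0296). So did the Leydig cell markers Star (adjusted p = 0.00392), Hsd3b1 (adjusted p = 0.0125) and Lhcgr (adjusted p = 0.0153). The part of somatic cells in the values of Psmb8, Psme1 and the interferon genes was not tested.

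The 19S particle held 1 call among its 17 genes, 5.88% of them against 22.9% of all genes tested. Of the 6 ATPases Psmc2 was lower, and the median log2 fold change was −0.04. PSMC2 is 1 of the ATPases of the ring that unfolds substrates. Psmc2 (mm10, chr5:21785275-21803787, plus strand) gave 5252, 5391, 5547, 5020.1 and 5164 normalized counts in WT and 3952, 4267, 4205, 4787 and 3857 in KI. All KI libraries were below all WT libraries. The log2 fold change was −0.33 (SE 0.09, adjusted p = 0.0114), with −0.38 in libraries 1 to 3 and −0.24 in libraries 4 and 5. It was −0.10 with an adjusted p of 0.284 under scaling to library totals. Psmc6, another ATPase, gave 576, 594, 551, 346 and 423 normalized counts in WT and 448, 382, 410, 315 and 253 in KI. Its log2 fold change was −0.46 (SE 0.17) and missed the threshold (adjusted p = 0.0707), and it passed with the replicate number as a block (adjusted p = 0.00299) and by DESeq2 (adjusted p = 0.0453). In limma it also passed without KI library 1 (adjusted p = 0.0446) and without WT library 4 (adjusted p = 0.0198).

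The remaining 19S genes showed small differences. Psmc3, the most abundant ATPase gene, had a log2 fold change of −0.07 (95% interval −0.27 to 0.14). Of the 3 non-ATPase genes of the base, Psmd1, Psmd2 and Psmd4, 0 were called by limma, edgeR or DESeq2, and 0 had an unadjusted p under 0.05. Psmd4 encodes a ubiquitin receptor, and its log2 fold change was 0.06 (95% interval −0.11 to 0.23). Of the 8 lid genes 0 were called by any of these tests, and 1, Psmd6, had an unadjusted p under 0.05 (log2 fold change −0.20, adjusted p = 0.106). Psmd14, the gene of the lid enzyme that removes ubiquitin chains, had a log2 fold change of 0.12 (95% interval −0.09 to 0.32).

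Psmd10 had the lowest fold change of the 47 genes. Its product, gankyrin, is a chaperone that helps to assemble the 19S base. Psmd10 (mm10, chrX:140948425-140956711, minus strand) gave 231, 235, 216, 279.8 and 286 normalized counts in WT libraries 1 to 5, and 128, 125, 118, 129 and 94.8 in KI libraries 1 to 5. The KI libraries lay well below all WT libraries. The mean was 249.6 ± 31.3 in WT and 119 ± 14.2 in KI (SD, n = 5), with a log2 fold change of −1.06 (SE 0.13, adjusted p = 2.51e-05). Libraries 1 to 3 alone gave −0.87, and libraries 4 and 5 alone gave −1.35. Psmg2, a chaperone of the alpha ring, was also lower. It gave 618, 591, 554, 594 and 469.7 normalized counts in WT and 445, 442, 433, 398 and 377 in KI, without overlap. Its log2 fold change was −0.43 (SE 0.10, adjusted p = 0.00567), and −0.20 (adjusted p = 0.144) under scaling to library totals. The other 5 chaperone genes, Psmg1, Psmg3, Psmg4, Psmd5 and Psmd9, had log2 fold changes between −0.03 and 0.10 and were not called.

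Psmf1 fell by about as much as Psmd10. Its product, PI31, inhibits the 20S core in the test tube and takes part in the transport and assembly of proteasomes. Psmf1 (mm10, chr2:151716062-151741310, minus strand) gave 4081, 4806, 5014, 3181 and 3542 normalized counts in WT libraries 1 to 5, and 2019, 2055, 1988, 2385 and 1818 in KI libraries 1 to 5. Every KI library lay below every WT library, and the WT values were lower in libraries 4 and 5. The mean was 4125 ± 789 in WT and 2053 ± 207 in KI (SD, n = 5), and the log2 fold change was −0.99 (SE 0.13, adjusted p = 4.11e-05), −1.19 in libraries 1 to 3 and −0.69 in libraries 4 and 5. Per kb it stood 2.26-fold above the median of the other 46 genes in WT and 1.18-fold in KI.

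The promoters of Psmd10, Psmf1 and Psmb8 are shown beside those of Psma6, as these 4 genes passed both thresholds (RefSeq, GRCm38.p6, chrX:140956662-140956961 and chr2:151741261-151741560 on the minus strand, chr17:34197945-34198244 on the plus strand, all read 5′ to 3′ along the gene). Capitals mark CCAAT or its reverse complement in Psmd10 and TTCNNNGAA, the letters bound by STAT factors, in Psmb8.

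Psmd10: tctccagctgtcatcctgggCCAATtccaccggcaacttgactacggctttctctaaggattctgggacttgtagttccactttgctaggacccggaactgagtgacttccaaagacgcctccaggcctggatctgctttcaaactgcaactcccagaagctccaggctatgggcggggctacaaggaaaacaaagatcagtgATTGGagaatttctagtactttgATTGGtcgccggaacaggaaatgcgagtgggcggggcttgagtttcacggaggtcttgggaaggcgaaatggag
Psmf1: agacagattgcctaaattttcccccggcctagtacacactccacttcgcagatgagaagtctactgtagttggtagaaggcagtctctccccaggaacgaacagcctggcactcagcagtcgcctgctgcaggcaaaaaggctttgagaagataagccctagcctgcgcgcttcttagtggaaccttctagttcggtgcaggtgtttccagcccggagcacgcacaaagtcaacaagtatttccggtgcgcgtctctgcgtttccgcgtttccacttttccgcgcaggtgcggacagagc
Psmb8: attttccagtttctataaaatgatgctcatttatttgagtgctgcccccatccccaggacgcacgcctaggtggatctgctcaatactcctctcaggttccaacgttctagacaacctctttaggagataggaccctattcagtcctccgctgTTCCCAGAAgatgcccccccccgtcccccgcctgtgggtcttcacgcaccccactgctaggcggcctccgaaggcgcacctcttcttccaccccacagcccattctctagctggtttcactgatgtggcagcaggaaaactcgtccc

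Psmd10 held CCAAT 3 times over both strands, and Psmb8 held TTCNNNGAA. Both strands of all promoters were searched for 5 sets of letters. CCAAT was in 12 of the 42 promoters of proteasome genes (28.6%) and in 37.4% of all promoters. TGACNNNGC, the core bound by NFE2L1 and NFE2L2, which control proteasome genes, was in 6 (14.3%) and in 12.4% of all, and the 6 were those of Psmb5, Psmb6, Psmc6, Psmd9, Psmd12 and Psme4. TGACGTCA, the letters bound by CREB and CREM, was in 0 of the 42 and in 1.79% of all. TTCNNNGAA was in 3 (7.14%), those of Psmb8, Psmd2 and Psmg1, and in 8.30% of all. GAAANNGAA, letters within the sites of interferon regulatory factors, was in 7 (16.7%), those of Psmb3, Psmb4, Psmc2, Psmd4, Psmd9, Psme1 and Psmg4, and in 8.56% of all. TGACNNNGC and TGACGTCA share their first letters, and matches are a description of these windows.

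Proteins that work with the proteasome but carry no Psm symbol were counted from a fixed list. Of 31 tested, 8 were lower in KI and 2 were higher at an adjusted p under 0.05, with a median log2 fold change of −0.07. These are 25.8% and 6.45% of the list, against 13.3% and 9.65% of all genes tested. Those with a fold change of at least 1.5 were all lower. Among them, Ddi1 (log2 fold change −1.03, adjusted p = 7.39e-05) and Rad23b (−0.61, adjusted p = 0.000386) encode shuttle proteins that bring ubiquitinated proteins to the proteasome. Ufd1 (−0.71, adjusted p = 0.00166) encodes a cofactor of the segregase VCP. With the replicate number as a block, 5 genes of the list were higher.

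The 8 called proteasome genes kept their sign in both groups of libraries. None of the 8 overlapped between the genotypes over all 10 libraries, so the sign within each group was fixed beforehand. It adds no support to the calls. Over all 47 genes, 27 had the same sign in libraries 1 to 3 as in libraries 4 and 5. A test of the difference between the library groups, added after the values were seen, gave an adjusted p under 0.05 for 38 of all genes tested and for 0 of the 47 in limma. Of the 47, 6 had an unadjusted p under 0.05 in that limma test. The shares of all genes with the same sign and with such an unadjusted p were not computed. The counts of 27 and 6 are therefore not read as traits of the proteasome genes.

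**Figure D5:**
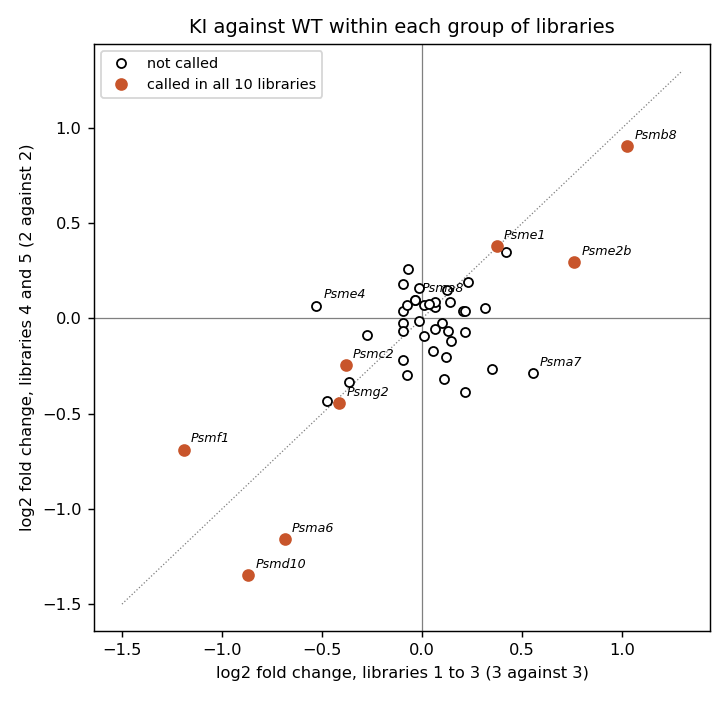
Log2 fold change, KI against WT, of the 47 proteasome genes in libraries 1 to 3 (x axis, 3 against 3) and in libraries 4 and 5 (y axis, 2 against 2), with the line of equal values dotted. The 8 genes called in all 10 libraries lie in the lower left or upper right part, as genes without overlap between the genotypes must. Psma7 and Psme4 have opposite signs in the 2 groups.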

How the data were processed

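Poly(A) RNA of dispersed germ cells was measured in 10 libraries, 5 WT and 5 KI. After adapter trimming, the authors used STAR for alignment to mm10 and Partek E/M for counting on RefSeq_v91, and deposited a signal per gene, which is the count divided by the DESeq2 size factor of the library. Dividing each deposited value by the value of 1 read returned whole reads (tolerance 0.05) for 100% of values under 5000 reads, and size factors recomputed with DESeq2 differed from it by at most 9.60e-06 percent. The aligner settings and the strand setting are not given in the sources used here.

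The genes, roles and lists were chosen with earlier results of these data known. Every gene of the set could be named. Values per library were given for the called genes, Psma8, Psme4, their relatives and the inducible subunits with their partners, and of the other lists the called genes with a fold change of at least 1.5 were named, up to 10 a list, except some that are not reported here. Tests used limma (version 3.58.1, R 4.3.3) with a variance trend on log2(normalized count + 1) for 15389 genes kept by filterByExpr (edgeR version 4.0.16) on the recovered reads, adjusted by Benjamini-Hochberg over all of them. A gene was called at an adjusted p under 0.05. Fold changes are on the log2(value + 1) scale and understate those of low genes. Shares of paralogs were compared by exact permutation over all arrangements of 5 against 5 libraries. Alternatives were edgeR and DESeq2 (version 1.42.0) on the recovered reads, other scalings, filters and pseudocounts, a replicate block, a term for read quality, subsets of libraries and leaving out each library. The limma, edgeR and DESeq2 tests were tried on simulated data, and the permutation tests were not. Libraries of the same number correlated, after genotype means were removed, with r of 0.306, 0.105, 0.280, 0.216 and 0.462. Libraries of different numbers were not compared, and the split by read quality, present in both genotypes, was not removed. These r therefore do not show that the libraries are paired, and the labels give only the number. The number was used as a pairing in alternatives only. The limma fit and the permutation tests reported first ignore it. Values with this assumed pairing are given where they change a call of a proteasome gene, a share or a somatic marker, and for Psmb8. No library duplicated another of its genotype (chi-square per degree of freedom at least 2.68), and WT libraries were not compared with KI libraries in this way. Gene coordinates are those of the deposited table with the end moved by 1 base, as its ends lie 1 past those of RefSeq for 9615 of 15328 genes. Columns not assigned numbered 0. Counting error limits the genes of few reads.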

Additional observations from a re-analysis of the deposited data

Results flagged for a closer look

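In 94 groups, the 5 libraries of each genotype for each of the 47 genes, the gap of the highest or lowest library to its neighbour was set against the range of the group, and 3 were past the 95% critical value of Dixon's test, which chance alone passes in about 1 of 20 groups. Psma3 was 390 normalized counts in WT library 4, against 266 to 299 in the other WT libraries. Psmb5 was 1666 in WT library 4, against 1112 to 1184. Psma6 was 6409 in WT library 5, against 9285 to 10336. Psma3 and Psmb5 were not called between the genotypes, and the log2 fold change of Psma6 lay between −0.998 and −0.717 when any 1 library was left out.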

How the results depend on the processing

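Over 37 named genes, 882 alternative values were computed, of which 771 kept direction and side of the threshold, 70 lost the threshold, 16 gained it, and 25 turned in sign, all of genes that were called neither before nor after. The turned log2 fold changes were −0.29 for Psma7 and 0.067 for Psme4 in libraries 4 and 5 alone. In libraries 1 to 3 alone they were −0.037 for Psma8, 0.12 for Psmb5, −0.034 for Psmb7 and 0.11 for Psmb10. Library totals gave 0.22 for Psmb5, 0.16 for Psmb10 and 0.15 for Psme3, the upper quartile 0.084 for Psmb5, 0.029 for Psmb10 and 0.0100 for Psme3, and edgeR with TMM factors −0.0023 for Psma8. Leaving out 1 library gave −0.090 to 0.097 for Psma8, −0.044 to 0.10 for Psmb5, −0.029 to 0.061 for Psmb7 and −0.15 to 0.0037 for Psmb10. Psma6, Psmd10 and Psmf1 passed the threshold in 24 of 24 alternatives each. The cause of each of the following moves was not tested unless the alternative itself uses fewer libraries or genes. Under scaling to library totals 3 proteasome genes were lower and 18 higher (3 higher with the fold change), 10 partners were higher, and the median of the proteasome genes was 0.25. In libraries 1 to 3 alone 8 were lower and 5 higher (2 with the fold change) and 4 partners were higher. In libraries 4 and 5 alone 3 were lower and 0 higher (0 with the fold change), 4 partners were lower and 0 higher, and 1 interferon gene was higher and 0 lower. With the fold change raised to at least 2, 1 was lower and 0 higher. The count higher with the fold change was 0 for a mean of at least 50 and for a pseudocount of 10, and 2 under the upper quartile. For a mean of at least 50, 0 interferon genes were lower. Partners that were higher numbered 4 by DESeq2, 4 with a term for read quality, 4 under the upper quartile and 5 with the replicate block. The block added Psma5 and Psmc6 and changed no other call among the proteasome genes. Leaving out 1 library gave 5 to 6 lower and 1 to 3 higher proteasome genes, with the fold change 3 to 3 lower and 1 to 2 higher, 6 to 9 lower and 1 to 2 higher partners, and 5 to 7 higher interferon genes. The share of all genes called is given for the main fit and library totals only. In the other alternatives, moves of these counts therefore cannot be told from moves over all genes.

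In libraries 4 and 5 alone the share of Psma8 in Psma7 and Psma8 was higher in KI by 2.56 percentage points, Psma8 against the other 20S genes was higher by 0.28 and Psme4 against the rest was higher by 0.15 on the log2 scale. In libraries 1 to 3 alone the share of Psmb10 was higher in KI by 0.327 points. The difference in the share of Psmb8 was 0.179 points in libraries 1 to 3 (exact permutation p = 0.1) and 0.227 in libraries 4 and 5 (exact permutation p = 0.333), which are the smallest p that these designs can give. With the replicate block, that is, permuting within the 5 pairs, the difference of 0.198 points had an exact permutation p of 0.0625, again the smallest possible. It was 0.733 points without the division by length and 0.350 with the longest transcript, both with p = 0.00794 (exact permutation), and the test within pairs was added after the values were seen. The median of the proteasome genes minus that of all genes lay between −0.05 and 0.01 in all 24 alternatives.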
